A study of Mus musculus with 8 samples.

Results

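The imprinted growth regulators were 10 genes chosen by name: H19, Meg3, Grb10 and Cdkn1c, which are expressed mainly from the maternal allele, and Igf2, Dlk1, Peg3, Plagl1, Mest and Ndn, which are expressed from the paternal allele. A probe set was taken where its only gene symbol in the array annotation was a member. The array had 1 such probe set for each of 9 members, among 19935 gene symbols. No probe set here named H19 alone, and H19 was not analysed here. The 8 arrays (Affymetrix Mouse Gene 1.0 ST) measured total, unsorted mammary cell suspensions from the fourth glands of FVB/NHanHsd mice, with 1 array per pool of 5 animals. The 4 parous pools came from females mated at 42 days of age that gave birth and nursed for 21 days. Involution followed, for which the labels give 28 days. The paper's methods give a longer interval from weaning to cell harvest, and this difference could not be settled here. The 4 virgin pools came from never-mated females of matched age. Adipocytes, red blood cells and part of the fibroblasts had been removed, and the estrous stage of each pool was not given in the sources used here. Reproductive history was the only difference the labels gave between the groups. The comparison asked whether an early pregnancy left a lasting difference in the RNA level of imprinted growth genes, and whether maternally and paternally expressed genes differed in it.

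Genomic imprinting is the silencing of a gene on the allele inherited from one parent, through DNA methylation that is laid down in the germ line and kept after fertilization. Many paternally expressed imprinted genes promote fetal and placental growth, and several maternally expressed ones restrain it. Most imprinted genes lie in clusters under a shared control region. Igf2 and H19 form such a cluster and are expressed from opposite alleles, as do Dlk1 and Meg3. After birth many imprinted genes fall to low levels. An expression array sums the RNA of both alleles, so that loss of imprinting and a change of transcription from the active allele give the same reading.

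None of the 9 measured members passed the criteria for a difference between parous and virgin glands, for which the linear change had to exceed 1.5-fold at an adjusted p below 0.05 (limma, Benjamini-Hochberg over all probe sets), with a mean linear expression over 4. Of all 34760 probe sets, 0.397% passed. At an unadjusted p under 0.05, 1 of the 9 members was found, Ndn, beside 11.4% of all probe sets. The arrays of the groups did not overlap for 1 of the 9, Cdkn1c, beside 7.6% of all probe sets. These shares rest on 1 gene each and are near the background. Another imprinted gene, Peg10, was 1.69-fold higher in parous glands and passed.

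The virgin arrays differed widely among themselves. The first principal component held 36.4% of the variance, and virgin 2 and virgin 4 lay apart on it at -32.7 and -66.8. Virgin 1 and virgin 3 were at 9.35 and 11.4, closer to the parous arrays at 12.7 to 25.8. Every virgin array lay below every parous array on this component. The mean of 7 proliferation markers was 8.55 on virgin 2 and 9.15 on virgin 4, against 6.92 and 6.93 on the other virgin arrays and 6.25 to 6.62 on the parous arrays (log2 scale). All 6 luminal epithelial markers were at 10.1 or above on every array, where the array medians were 6.29 to 6.43. The 7 endothelial markers were at 8.97 or above and the 12 fibroblast markers at 7.87 or above, so that the suspensions, although labelled as epithelial, held RNA of other cell types. In such suspensions, fewer cells of a type and less RNA per cell cannot be told apart. Values given with both virgin 2 and virgin 4 left out stand beside the results they touch.

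**Figure D1:**
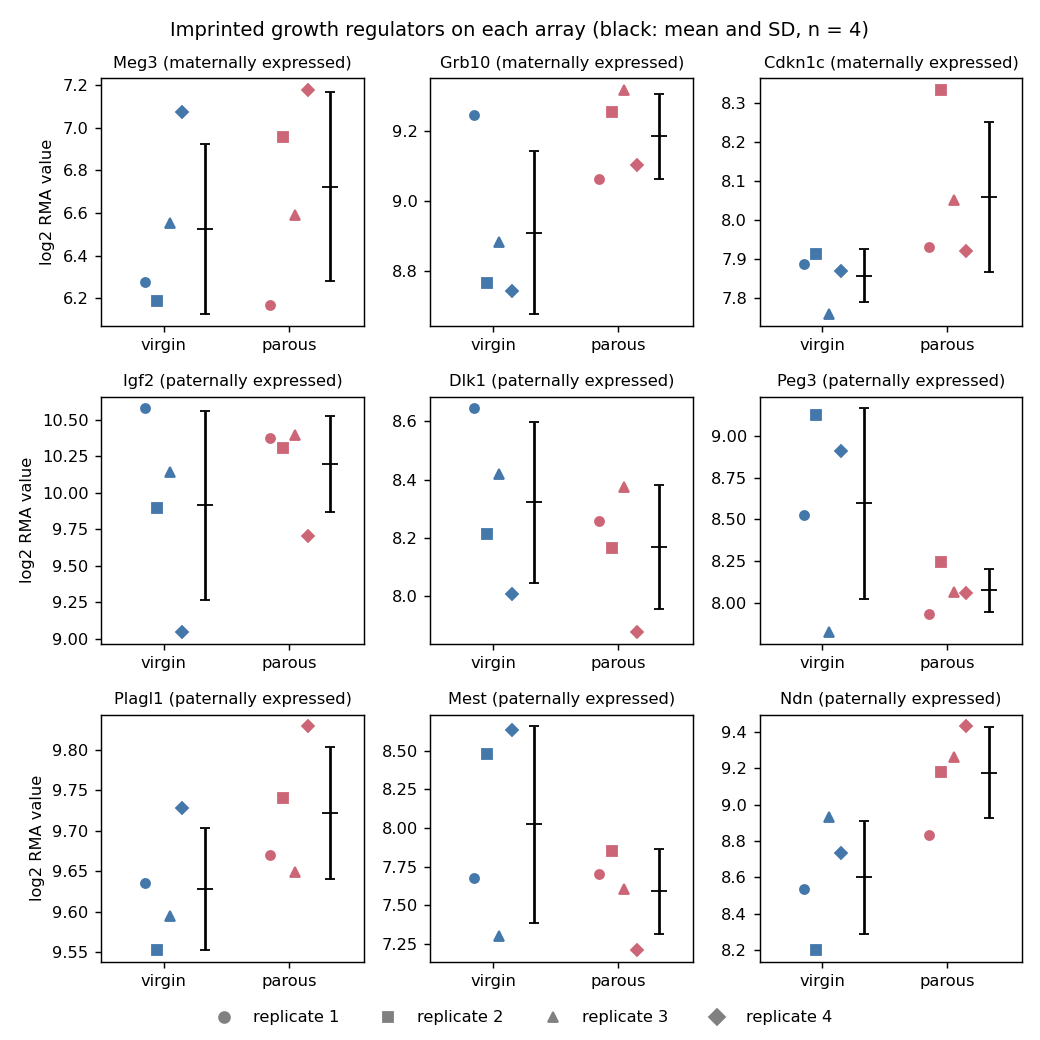
Log2 RMA value (y axis, a separate range in each panel) of each of the 9 measured imprinted growth regulators on the 4 virgin and 4 parous arrays, with the replicate number as the symbol and the mean and SD of each group (n = 4) in black. The groups overlap for every member but Cdkn1c, and virgin 2 and virgin 4 hold the highest values of Peg3 and Mest.

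The maternally expressed members all had means that were slightly higher in parous glands, and none passed. Cdkn1c, which encodes the cyclin-dependent kinase inhibitor p57Kip2 and lies on chromosome 7, was measured at 7.93, 8.33, 8.05 and 7.92 on parous arrays 1 to 4 and at 7.89, 7.91, 7.76 and 7.87 on virgin arrays 1 to 4. Every parous array lay above every virgin array, but parous 4 exceeded virgin 2 only narrowly and parous 2 was well above the rest. The means were 8.06 ± 0.19 and 7.86 ± 0.07 (SD, n = 4), a log2 difference of 0.20 with SE 0.10 and a 95% confidence interval of -0.03 to 0.44 (adjusted p = 0.52, limma). Without parous 2 it was 0.11. The exact 2-sided permutation test gave p = 0.029, the smallest that 4 arrays against 4 allow.

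Grb10, an adaptor protein that dampens signaling from the insulin and IGF1 receptors and lies on chromosome 11, was at 9.06, 9.26, 9.32 and 9.10 on the parous arrays. On the virgin arrays it was at 9.25, 8.77, 8.88 and 8.74. Virgin 1 lay among the parous values, and the other 3 virgin arrays lay below all of them. This gave a log2 difference of 0.28 with SE 0.13 and an interval of -0.01 to 0.56 (adjusted p = 0.45, limma). It was 0.12 with both virgin 2 and virgin 4 left out.

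Meg3, a long non-coding RNA of chromosome 12, was at 6.17, 6.96, 6.59 and 7.18 on the parous arrays and at 6.28, 6.19, 6.55 and 7.07 on the virgin arrays. These values lay on both sides of the array medians. Each group held both high and low arrays, with array 4 the highest in both. The log2 difference of 0.20 had an SE of 0.26 and an interval of -0.39 to 0.79 (adjusted p = 0.84, limma). Leaving out 1 array moved it between 0.05 (without parous 4) and 0.39 (without parous 1), and without both virgin 2 and virgin 4 it was 0.31. Over the 8 arrays, the genes with the pattern most like that of Meg3 were Cdh24 (Pearson r = 0.986), Iapp (r = 0.975) and Slco1c1 (r = 0.967). Iapp and Slco1c1 were dim, with no value above 4.76.

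Among the paternally expressed members, 3 had higher and 3 lower means in parous glands. Igf2, the insulin-like growth factor II ligand on chromosome 7 that acts through the IGF1 receptor, was at 10.37, 10.31, 10.40 and 9.71 on the parous arrays and at 10.58, 9.90, 10.14 and 9.04 on the virgin arrays. Virgin 1 was the highest of all arrays, and array 4 was the lowest of each group. The groups differed by 0.28 on the log2 scale with SE 0.31 and an interval of -0.43 to 0.99 (adjusted p = 0.80, limma). The difference was -0.16 with both virgin 2 and virgin 4 left out, and -0.01 without virgin 4 alone, so that even its sign rested on the lowest virgin array.

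Igf2 and the endothelial markers were highest and lowest on the same arrays. The genes with the most similar pattern were Notch4 (r = 0.991), an endothelial Notch receptor, Epas1 (r = 0.987), the hypoxia-inducible factor HIF-2α, and AU021092 (r = 0.986), each over 8 arrays. After centring over the 8 arrays, the mean of the 7 endothelial markers was 0.05, 0.33, 0.21 and -0.22 on the parous arrays and 0.34, -0.05, -0.03 and -0.62 on the virgin arrays. Virgin 1 was the highest array and virgin 4 the lowest, as for Igf2. None of these 7 markers passed between the groups (median log2 difference 0.16), and the part of endothelial cells in the Igf2 values was not tested.

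Dlk1, a membrane protein related to Notch ligands that holds back adipocyte differentiation, shares the chromosome 12 cluster with Meg3. It was at 8.26, 8.17, 8.37 and 7.88 on the parous arrays and at 8.65, 8.21, 8.42 and 8.01 on the virgin arrays. The groups overlapped over most of their range, and array 4 was the lowest of both. The log2 difference was -0.15 with SE 0.16 and an interval of -0.51 to 0.21 (adjusted p = 0.78, limma). Leaving out 1 array moved it between -0.04 (without virgin 1) and -0.26 (without virgin 4), and without both virgin 2 and virgin 4 it was -0.37. The genes with the pattern most like that of Dlk1 over the 8 arrays were Cpd (r = 0.968), a carboxypeptidase, Gpr137 (r = 0.954) and Spata6 (r = 0.952).

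Dlk1 and Meg3, which are expressed from opposite alleles of their cluster, were negatively correlated over the 8 arrays. Pearson's r was -0.709 (permutation p = 0.0498) and Spearman's rho -0.643 (permutation p = 0.0962), with 1 pair tested. Without virgin 1 and parous 4, the arrays farthest from the median of Dlk1, r was -0.505 (permutation p = 0.317, 6 arrays). Leaving out single arrays gave a permutation p from 0.028 (without virgin 2) to 0.2 (without parous 4). It was above 0.05 without any 1 array other than parous 1 or virgin 2, while r stayed negative. Groups of 4 arrays were too small for a value within each group. Igf2 and H19 could not be paired because H19 was not analysed here.

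**Figure D2:**
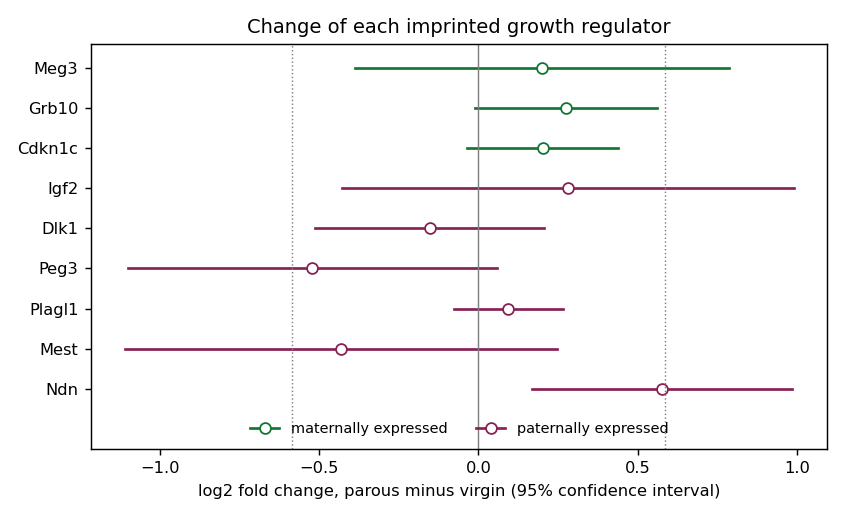
Log2 fold change (x axis, parous minus virgin) of the 9 measured members with its 95% confidence interval from limma, the 3 maternally expressed members in green and the 6 paternally expressed in purple; dotted lines mark a fold change of 1.5 in each direction. The interval of Ndn, 0.17 to 0.99, is the only one that does not reach 0, and no member passed after adjustment.

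Peg3 and Mest shared a pattern in which the virgin arrays differed more among themselves than from the parous arrays. Peg3, a zinc-finger transcription factor on chromosome 7, was at 7.93, 8.24, 8.07 and 8.06 on the parous arrays and at 8.53, 9.12, 7.82 and 8.91 on the virgin arrays. Mest, an enzyme of the alpha/beta hydrolase family on chromosome 6, was at 7.70, 7.85, 7.60 and 7.21 on the parous arrays and at 7.68, 8.48, 7.30 and 8.64 on the virgin arrays. For both genes, virgin 2 and virgin 4 were the highest arrays, and virgin 3 was at or near the bottom.

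The log2 difference of Peg3 was -0.52 with SE 0.25 and an interval of -1.10 to 0.06 (adjusted p = 0.49, limma), and that of Mest was -0.43 with SE 0.30 and an interval of -1.11 to 0.25 (adjusted p = 0.65, limma). The SD of the virgin arrays was 0.57 for Peg3 and 0.64 for Mest, against 0.13 and 0.27 in the parous arrays. With both virgin 2 and virgin 4 left out, the difference of Peg3 was -0.10 and that of Mest was 0.10. The 7 proliferation markers were highest on the same pair of virgin arrays, and none of the 7 passed (median log2 difference -1.33). At an unadjusted p under 0.05 (limma), all 7 were lower in parous glands, beside 11.4% of all probe sets in either direction. The groups did not overlap for 6 of the 7, beside 7.6% of all probe sets. Whether dividing cells carried the Peg3 and Mest RNA was not tested. The gene most like Peg3 was Krt16 (r = 0.993), a keratin of stratified epithelia, and the gene most like Mest was Zfp408 (r = 0.993); these genes were looked up after the values of Peg3 and Mest had been seen.

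Promoter windows, from 250 bases before to 50 after a transcript start, were found for 8 members, with 15 windows in all and none for H19 or Cdkn1c. They were searched on both strands for TGCCGC, the hexamer that ZFP57 binds when its CpG is methylated and through which imprints are protected. A match was found in 6 of 15 windows (40%), beside 11.6% of all 32851 windows. By gene it was found in 5 of 8 members (Igf2, Meg3, Plagl1, Grb10 and Mest), beside 13.1% of 27025 genes. The members had more windows per gene (15 for 8) than all genes (32851 for 27025). More windows give a gene more chances of a match. The 6 windows also include overlapping windows of Mest. The median number of CpG dinucleotides was 13 per window in the members and 7 in all windows. Since the hexamer holds a CpG, windows richer in CpG also have more chances of a match. A match is a description of these letters and not a bound site.

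The windows of Peg3 and Mest, which were high on the same virgin arrays, and of Ndn, which is described next and was not, are printed from RefSeq (GRCm38.p6), 1 for each gene and each 300 bases long, 5′ to 3′ on the strand of the gene, with matches to the hexamer or its reverse complement GCGGCA in capitals. Peg3 is at chr7:6730370-6730669 on the minus strand, Mest at chr6:30737800-30738099 on the plus strand and Ndn at chr7:62348027-62348326 on the plus strand.
Peg3: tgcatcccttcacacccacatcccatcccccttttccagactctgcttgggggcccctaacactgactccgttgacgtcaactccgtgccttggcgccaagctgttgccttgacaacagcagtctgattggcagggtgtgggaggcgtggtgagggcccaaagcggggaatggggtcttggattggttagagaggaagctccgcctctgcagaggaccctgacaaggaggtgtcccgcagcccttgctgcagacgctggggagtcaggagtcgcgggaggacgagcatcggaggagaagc
Mest: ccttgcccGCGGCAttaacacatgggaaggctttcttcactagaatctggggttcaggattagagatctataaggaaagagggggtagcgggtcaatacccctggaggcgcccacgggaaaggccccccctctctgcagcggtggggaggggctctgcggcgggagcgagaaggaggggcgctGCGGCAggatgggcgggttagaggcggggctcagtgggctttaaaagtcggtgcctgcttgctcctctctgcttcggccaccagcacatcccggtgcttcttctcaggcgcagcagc
Ndn: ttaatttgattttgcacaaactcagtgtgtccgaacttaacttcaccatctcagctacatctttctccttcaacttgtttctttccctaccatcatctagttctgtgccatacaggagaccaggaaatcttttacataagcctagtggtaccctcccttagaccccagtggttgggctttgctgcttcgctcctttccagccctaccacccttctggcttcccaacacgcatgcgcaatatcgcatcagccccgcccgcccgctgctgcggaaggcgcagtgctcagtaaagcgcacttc
The printed Mest window held 2 matches and 17 CpG dinucleotides, the Peg3 window 0 matches and 13, and the Ndn window 0 matches and 11. Mest had 3 windows: another starts 3 bases further on and holds the same matches, and that of an upstream start, at chr6:30733256-30733555, holds 0 matches and 8 CpG dinucleotides.

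Ndn and Plagl1 had higher means in parous glands and did not pass. Ndn encodes necdin, a MAGE family protein that restrains proliferation, on chromosome 7, and was at 8.83, 9.18, 9.26 and 9.43 on the parous arrays. It was at 8.53, 8.20, 8.93 and 8.73 on the virgin arrays. Parous 1 lay below virgin 3, and the other 3 parous arrays lay above all virgin arrays. The means were 9.18 ± 0.25 and 8.60 ± 0.31 (SD, n = 4), a 1.49-fold difference and a log2 difference of 0.58 with SE 0.18 and an interval of 0.17 to 0.99 (unadjusted p = 0.011, adjusted p = 0.27, limma).

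The gene most like Ndn over the 8 arrays was Pdgfra (r = 0.994), a growth factor receptor of fibroblasts, looked up after the values of Ndn had been seen. The mean of the 12 fibroblast markers, Pdgfra among them, ranged from 10.2 to 10.8 on the parous arrays and from 9.70 to 10.3 on the virgin arrays. None of the 12 passed, and their median log2 difference was 0.47. At an unadjusted p under 0.05, 6 were higher, beside 11.4% of all probe sets in either direction. Of the 12, 10 had higher means in parous glands and 2 had lower means, Col1a1 (-0.21) and Col3a1 (-0.24). The part of fibroblasts in the Ndn values was not tested.

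Plagl1, a zinc-finger transcription factor also known as Zac1, on chromosome 10, spanned the narrowest range of the members. It was at 9.67, 9.74, 9.65 and 9.83 on the parous arrays and at 9.64, 9.55, 9.59 and 9.73 on the virgin arrays. Only virgin 4 lay within the parous range, since the other 3 virgin arrays lay below all parous arrays. The log2 difference was 0.09 with SE 0.075 and an interval of -0.08 to 0.27 (adjusted p = 0.70, limma). The intervals of Plagl1, Dlk1, Cdkn1c and Grb10 lay within a 1.5-fold change in either direction, and those of the other 5 measured members did not.

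**Figure D3:**
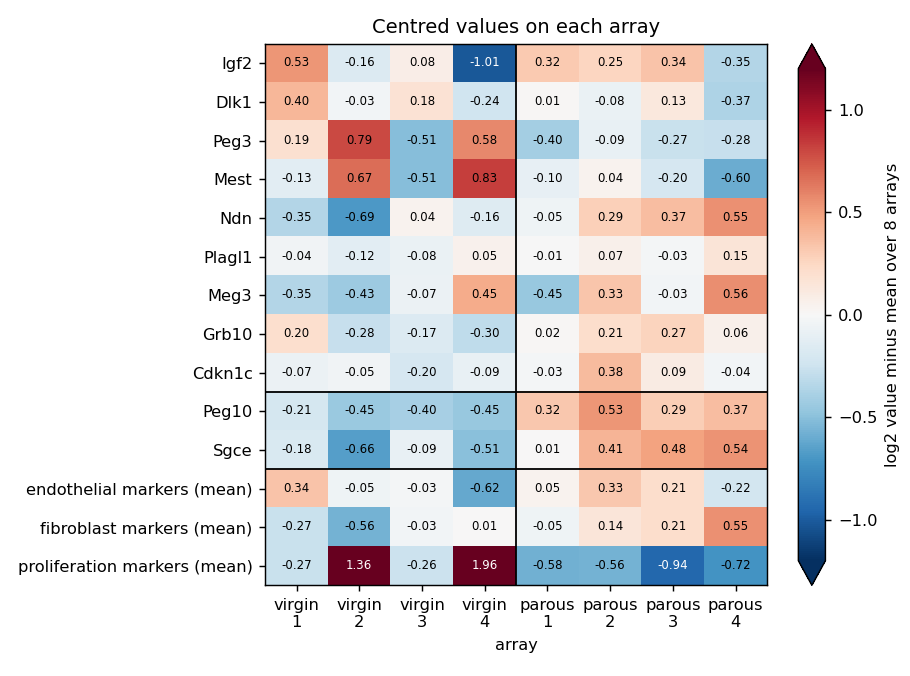
Log2 value minus its mean over the 8 arrays for the 9 measured members, for Peg10 and Sgce, and for the mean of 3 marker lists, with 1 column per array and the value printed in each cell; the colour scale ends at -1.2 and 1.2. Igf2 and the endothelial markers are lowest on virgin 4, Peg3 and Mest are highest on virgin 2 and virgin 4 together with the proliferation markers, and Peg10 is above 0 on every parous array and below 0 on every virgin array.

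By expressed allele, the 3 maternally expressed members had log2 differences of 0.20 to 0.28 with a median of 0.20. The 6 paternally expressed members ranged from -0.52 to 0.58 with a median of -0.03. The median over all 34760 probe sets was 0.0016. The medians of the classes differed by 0.23, given as a description of genes chosen with earlier results of these data known. Within each array, the median centred value of the maternally expressed members minus that of the paternally expressed members was 0.002, 0.28, 0.042 and 0.37 on the parous arrays and -0.15, -0.20, -0.15 and -0.036 on the virgin arrays. The groups did not overlap in this measure. They did overlap when means replaced medians, with -0.12 to 0.34 on the parous arrays and -0.33 to 0.011 on the virgin arrays, so the separation depended on how so few genes were summarized.

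The wider set of imprinted genes was set beside the members, and 39 of its 47 entries were measured. These genes were listed because they are reported as imprinted in mouse in at least 1 tissue. Which allele they express in these suspensions was not measured. Of the 21 other maternally expressed genes none passed, 14 had higher means in parous glands, and the median log2 difference was 0.10. At an unadjusted p under 0.05, 4 of the 21 were higher (Slc22a2, Tfpi2, Cd81 and Atp10a) and none lower, against 4 higher and 1 lower of the 18 other paternally expressed genes and 11.4% of all probe sets. By size alone, the largest differences among the 21 were those of Kcnq1, a potassium channel subunit (0.55, adjusted p = 0.44), Slc22a2, an organic cation transporter (0.43, adjusted p = 0.12), Tfpi2, a serine protease inhibitor (0.37, adjusted p = 0.26), and Rian, a non-coding RNA of the Dlk1 and Meg3 cluster (0.25, adjusted p = 0.61; all limma). Rian was at 4.62, 4.95, 4.79 and 5.15 on the parous arrays and at 4.57, 4.47, 4.47 and 5.01 on the virgin arrays, below the median of every array. As for Meg3, array 4 was the highest of both groups. Kcnq1 was at 8.44 to 8.62 on the parous arrays and at 8.42 and 8.43 on virgin 1 and virgin 3. It was lower only on virgin 2 (7.71) and virgin 4 (7.31) by more than a small margin.

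Of the 18 other paternally expressed genes 1 passed, 8 had higher and 10 lower means in parous glands, and the median log2 difference was -0.013. The gene that passed was Peg10, a retrotransposon-derived gene on chromosome 6 that is required for placental development. Peg10 was at 8.46, 8.66, 8.43 and 8.50 on the parous arrays and at 7.93, 7.69, 7.73 and 7.68 on the virgin arrays. All parous arrays lay well above all virgin arrays, and virgin 2 and virgin 4 did not stand apart from virgin 3. The log2 difference was 0.76 with SE 0.087 and an interval of 0.56 to 0.96 (adjusted p = 0.011, limma; exact permutation p = 0.029). The adjusted p was 0.051 without parous 3 and 0.087 without both virgin 2 and virgin 4, with log2 differences of 0.71 to 0.81 when single arrays were left out and 0.68 without that pair. Rasgrf1, a guanine nucleotide exchange factor on chromosome 9, passed only without that pair, at -0.86 (adjusted p = 0.032, limma), against -0.54 over all arrays (adjusted p = 0.315).

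Sgce, which encodes epsilon-sarcoglycan and is the neighbour of Peg10 with 0 protein-coding genes between them, did not pass. It was at 9.18, 9.59, 9.65 and 9.71 on the parous arrays and at 8.99, 8.52, 9.09 and 8.67 on the virgin arrays, without overlap. Sgce differed by 0.72 (log2) with SE 0.16 (adjusted p = 0.15, limma). Its largest opposite in this class was Nnat, which encodes neuronatin, at -0.61 (adjusted p = 0.47, limma), with its highest values on virgin 2 and virgin 4 as for Peg3 and Mest. Without that pair the difference was -0.14 for Nnat and 0.49 for Sgce. Sgce and Nnat were singled out after their values had been seen.

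**Figure D4:**
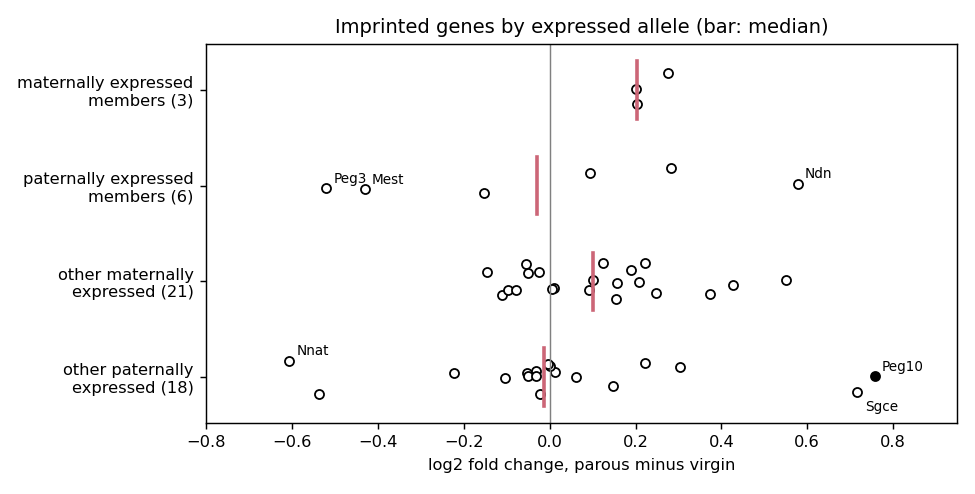
Log2 fold change (x axis, parous minus virgin) of each measured imprinted gene, 1 circle per gene, in 4 rows by expressed allele with the number of genes in brackets, members above and other imprinted genes below; the vertical bar is the median of the row and circles are spread vertically for legibility. The filled circle is Peg10, the only gene here that passed, and the medians are 0.20, -0.03, 0.10 and -0.01 from top to bottom.

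The IGF axis, through which Igf2 and Grb10 act, held 20 measured genes, of which 1 passed as higher and 1 as lower. Their log2 differences ran from -1.85 to 0.78, with a median of 0.04. At an unadjusted p under 0.05 (limma), 6 were higher and 5 lower, beside 11.4% of all probe sets in either direction. The groups did not overlap for 6 of the 20, beside 7.6% of all probe sets. Igfbp2, a binding protein that sequesters IGFs, was at 6.51, 6.54, 6.40 and 6.42 on the parous arrays and at 7.64, 8.84, 7.92 and 8.86 on the virgin arrays. The virgin arrays were all higher, and virgin 2 and virgin 4 were higher still. The difference was -1.85 (log2) with SE 0.27 (adjusted p = 0.032, limma). It was -1.31 with both virgin 2 and virgin 4 left out (adjusted p = 0.014), and the adjusted p was above 0.05, up to 0.13, without virgin 2, virgin 4 or any 1 of the parous arrays.

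Igfals, the acid-labile subunit that holds IGFs in circulating complexes, was 1.63-fold higher in parous glands. It was at 7.96, 7.81, 7.75 and 7.67 on the parous arrays and at 6.95, 7.08, 7.35 and 6.98 on the virgin arrays. The groups did not overlap (log2 difference 0.71 with SE 0.11, adjusted p = 0.039, limma), although the adjusted p was above 0.05, up to 0.15, without any 1 array other than virgin 3, and 0.23 without both virgin 2 and virgin 4. The receptors that bind Igf2, named here for that role, did not pass. Igf1r, which carries its growth signal, differed by 0.28 with an interval of -0.13 to 0.68, and Igf2r, the maternally expressed receptor that clears Igf2, differed by -0.11 with an interval of -0.37 to 0.15. The other ligand, Igf1, differed by 0.46 with an interval of 0.10 to 0.81 (adjusted p = 0.32, limma). Igf1 was at 8.54 and 8.70 on virgin 2 and virgin 4, and at 9.13 and 9.15 on virgin 1 and virgin 3. The parous arrays ranged from 9.12 to 9.48.

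A list of G1 regulators held 13 measured genes: 5 cyclin-dependent kinase inhibitors, the class to which Cdkn1c belongs, 5 G1 cyclins and 3 of their kinases. None passed (median log2 difference -0.03). The largest difference was that of Ccne1, cyclin E1, at -0.43 (adjusted p = 0.56, limma), followed by the kinase Cdk4, at -0.37 (adjusted p = 0.38, limma). Both genes were highest on virgin 2 and virgin 4. There Cdk4 was at 12.18 and 12.32, against 11.70 and 11.75 on virgin 1 and virgin 3. Cdkn1b, the related inhibitor p27Kip1, differed by -0.02 with an interval of -0.19 to 0.15. Of 12 genes listed for setting up or maintaining imprints none passed, and 9 had lower means in parous glands (median -0.13). The centred mean of the list was above 0 on virgin 2 (0.16) and virgin 4 (0.31), where the proliferation markers were highest, and below 0 on the other 6 arrays. The part of dividing cells in this was not tested. Uhrf1, which brings the maintenance methyltransferase to replicating DNA, differed by -1.13 (adjusted p = 0.42, limma), with 6.51 to 7.01 on the parous arrays and 6.84 to 9.26 on the virgin arrays. Dnmt1, that methyltransferase, differed by -0.31 (adjusted p = 0.44, limma), and Dnmt3a, a de novo methyltransferase, by -0.32 (adjusted p = 0.23, limma). Each of these 3 was highest on virgin 2 and virgin 4.

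The mature arms of the microRNAs hosted by Mest and Igf2 are shown because they are made from members' own transcripts, with the seed (bases 2 to 8) in capitals (RefSeq, GRCm38.p6, 5′ to 3′).
mmu-miR-335-5p: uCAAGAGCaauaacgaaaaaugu
mmu-miR-335-3p: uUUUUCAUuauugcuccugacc
mmu-miR-483-5p: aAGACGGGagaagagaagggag
mmu-miR-483-3p: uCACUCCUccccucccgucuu
The 4 arms have 4 different seeds.

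Imprinted clusters also hold microRNAs, and 16 of the 19 listed had a probe set of their own. None passed, and their median log2 difference was 0.06. Of those named by size, Mir380, Mir377 and Mir127 lie in the Dlk1 and Meg3 cluster. They differed by 0.27, 0.25 and 0.14 (adjusted p of 0.52, 0.33 and 0.68, limma). Their probe sets were below the median of every array, with Mir380 at 2.81 to 3.52 and Mir377 at 3.25 to 3.78. Mir335 lies within Mest, and its probe set ranged from 4.51 to 4.63 on the parous arrays and from 4.32 to 4.50 on the virgin arrays, with a log2 difference of 0.19 (adjusted p = 0.36, limma). The Mir335 probe set was below the median of every array, and virgin 2 and virgin 4 were not high for it. Its difference was opposite in sign to that of Mest over all arrays, but the sign of Mest rested on virgin 2 and virgin 4. Mir483, named because it lies within Igf2, differed by 0.11 with an interval of -0.15 to 0.37. These probe sets read hairpin or primary transcripts and do not measure the mature arms.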

How the data were processed

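The deposited log2 values of 8 arrays were used. The authors made them with rma() in the affy package (the methods give the Bioconductor release, and no version of affy itself), by background correction, quantile normalization between arrays and summary to 1 log2 value per probe set. Quantile normalization removes a shift shared by most genes, and the number of arrays limits the precision. Of 34760 probe sets, 21640 named 1 gene here, with symbols updated through gene identifiers for 21553. A probe set that names Mir675, which lies within H19, also names another gene and was not read as H19. A gene with several probe sets was represented by that with the highest mean. The annotation of the array names no genome build.

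All probe sets were fitted with limma 3.58.1 in R 4.3.3 (lmFit and eBayes, 2-sided, no covariate), as in the study's methods, with a check on simulated data. A mean linear expression over 4 is a mean log2 value over 2. Intervals are at 95%. Single genes also had exact 2-sided permutation tests. The labels call the arrays biological replicates, and the main fit did not pair parous with virgin arrays. The alternatives were a replicate block, leaving out arrays, further normalizations, another variance model, the methods' t-test, filters on dim or unnamed probe sets and other fold changes. The methods give that t-test, Student's unpaired one, for comparisons in general, and limma for the arrays.

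Genes were named by a rule: all members, in each companion list the genes that passed or otherwise up to 4 with the largest difference (for markers, fewer), and for Igf2, Dlk1 and Meg3 the 3 with the highest correlation. The members and all lists were chosen with earlier results of these data known. Leaving out both virgin 2 and virgin 4, and the alternatives for companion lists, were added after seeing the data. In the remaining marker lists (pericyte and smooth muscle, adipocyte, skeletal muscle, Schwann cell, luminal, hormone-sensing luminal, luminal progenitor, basal and myoepithelial, macrophage, B cell and T cell) none passed, and median log2 differences ran from -1.03 (hormone-sensing luminal) to 0.40 (B cell).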

Additional observations from a re-analysis of the deposited data

Results flagged for a closer look

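Igf2 on parous 4 was 9.71, far from the other 3 parous arrays at 10.31 to 10.40: its gap to the nearest was 0.872 of the range of the group. It was the only one of 28 groups tested, and chance gives about 5 in 100. Parous 4 was also the lowest parous array of the endothelial markers (centred mean -0.22).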

How the results depend on the processing

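Of the 9 measured members none passed under any of the 19 alternatives, and the difference between the class medians stayed between 0.15 and 0.35 in 13 alternatives. The sign of Igf2 turned in 2 alternatives: it ranged from -0.00895 to 0.5042 when single arrays were left out and was -0.1644 without both virgin 2 and virgin 4, where that of Mest was 0.1018. The other 7 members kept their direction throughout. The 138 probe sets that passed became 49 with the replicate block, of which 43 were among the 138, 11 with the methods' t-test, and 42 to 179 when single arrays were left out. Of the other imprinted genes, Peg10 was lost with the replicate block (adjusted p = 0.089, count 0), with the methods' t-test (count 0) and at a fold change over 2 (count 0), and the count was 0 to 1 when single arrays were left out. In the companion lists 2 genes passed, Igfbp2 and Igfals. With the replicate block neither did (adjusted p of 0.091 and 0.14) and 1 other gene did, Foxa1. The count was 1 after median centring, 0 with the methods' t-test, 1 at a fold change over 2, and 0 to 3 when single arrays were left out, with Grb14 the third gene without virgin 3 (-0.99, adjusted p = 0.016). For Dlk1 and Meg3, r was -0.669 after quantile normalization was applied again and -0.815 to -0.560 when single arrays were left out. The causes were not tested. A figure caption of the paper counts 4 experiments and gives 5 parous and 5 virgin animals for every one, so a parous and a virgin array may share an experiment. The sources do not tie replicate numbers to shared experiments, and whether equal numbers mark such pairs could not be settled here. The main fit took the groups as unpaired, and the calls on Peg10, Igfbp2 and Igfals depended on that choice. Deviations of same-numbered arrays correlated at 0.115, 0.183, -0.057 and 0.307, not every array correlated best with its own number, and the replicate block changed no call on a member. Pools of whole suspensions limit what can be said of any cell type, and intervals as wide as that of Igf2 allow a 1.5-fold difference.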
